A study of Mus musculus with 15 samples.

Results

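Transient receptor potential (TRP) channels are the cation channels with which sensory neurons detect cold, heat, irritants and inflammatory products. The genes described here are Trpm8, Trpv1, Trpa1, Trpv2, Trpm3 and Trpm2, chosen by name from the 55573 genes of the count table, and all 6 had counts in every sample and passed the filter on low counts that left 16567 genes for testing. They were measured by RNA-seq in 15 right trigeminal ganglia (TG) of male CD1 mice, 10 weeks old. In every mouse, vehicle mice included, the epithelium and anterior stroma in the centre of the right cornea had been removed, and no uninjured TG was analysed here, so that each difference is between treatments of an injured eye. The eye then received vehicle, the resolvin RvD6 (the RvD6-standard of the labels) or its stereoisomer RvD6si (the RvD6-isomer) 3 times a day for 12 days, with 5 samples in each group. RvD6 and RvD6si are dihydroxy derivatives of docosahexaenoic acid that differ in stereochemistry. The schedule was shared, but the amount of each lipid per drop was not given for this experiment in the sources used here.

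The TG holds the cell bodies of the neurons that innervate the cornea, together with those serving the rest of the face, and the satellite glia and Schwann cells around them. TRPM8 opens on cooling and to menthol and marks cold-sensing corneal neurons that help to maintain basal tearing. TRPV1, the capsaicin receptor, and TRPA1, a receptor of pungent electrophiles, mark nociceptors, and TRPM3 contributes to heat detection. TRPV2 is found in medium and large sensory neurons as well as in immune cells, and TRPM2 responds to oxidative stress in neurons and in phagocytes. In whole ganglia, fewer cells of a type and less RNA per cell cannot be told apart. Corneal neurons are a small part of all TG neurons, and the counts sum over all of them.

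Total counts per library ranged from 4125962 to 9903396, with medians of 9147139 in vehicle, 7235362 in RvD6 and 6862705 in RvD6si. Nothing in the labels says whether each sample came from a separate mouse, so p-values measure the spread between samples. The neuronal identity of the tissue was clear in every library, with 8559 to 9377 CPM (counts scaled to a common library total) summed over 10 pan-neuron markers in vehicle, 5618 to 8262 in RvD6 and 7529 to 9283 in RvD6si. All 5 RvD6 libraries lay below all vehicle libraries in this sum. The same held for 6 satellite glia markers, at 6819 to 8315 CPM with RvD6 and 8656 to 9991 in vehicle. The 7 neutrophil markers reached 679 to 2236 CPM in the RvD6 libraries and 109 to 565 CPM in vehicle. In RvD6si they stood at 54 to 127 CPM in 4 libraries and at 2054 CPM in replicate 15, which also had the highest erythroid marker level of all, 12817 CPM. Erythroid markers were at 5691 to 10484 CPM in RvD6, 2263 to 4960 in vehicle and 967 to 2708 in the other RvD6si libraries. The 7 skeletal muscle markers summed to 78 to 2257 CPM in RvD6, 16 to 141 in vehicle and 10 to 28 in RvD6si. The 6 pituitary markers summed to 3559.8 CPM in vehicle replicate 3 and to 10.0 to 334.4 in the other vehicle libraries. They stood at 217.6 to 2282.5 CPM in RvD6 and 20.6 to 681.5 in RvD6si. Of the markers of these lists, only the pituitary gene Lhb was at 0 in all samples. Results for Trpm8 and for its ratio to Trpv1 are therefore given with and without replicate 15. For the other channels, some ranges with each sample left out are given at the end.

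**Figure D1:**
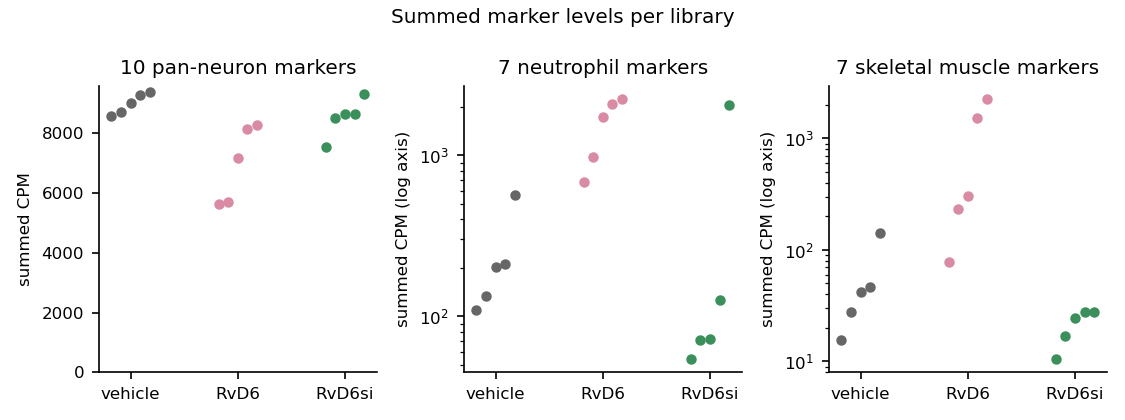
Summed CPM of 10 pan-neuron, 7 neutrophil and 7 skeletal muscle markers in each library (points, 5 per group; the neutrophil and muscle axes are logarithmic). All 5 RvD6 libraries lie below the vehicle libraries in neuron markers, with the lowest 2 at 5618 and 5692 CPM, while the RvD6si range (7529 to 9283 CPM) overlaps both, and 1 RvD6si library, replicate 15, has neutrophil markers at the level of the RvD6 group.

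In the GRCm38 annotation Trpm8 (ENSMUSG00000036251.16) spans chr1:88277661-88389293 on the plus strand with 4732 exonic bases. Of these, 388 (8.20%) are shared with the antisense transcript 4930453O03Rik, and since the counting did not use strand, reads in the shared bases were assigned to neither gene. The antisense gene itself had 1 count over all 15 samples. Trpv1 lies at chr11:73234292-73261242 on the plus strand, Trpa1 at chr1:14872648-14918862 on the minus strand and Trpv2 at chr11:62574486-62600515 on the plus strand, none with an overlapping gene. Trpm3, at chr19:22139046-22995410 on the plus strand, shares 2.57% of its 24437 exonic bases with overlapping genes, and Trpm2, at chr10:77907722-77970563 on the minus strand, shares 0.73% of its 12459.

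The 250 bases before the RefSeq transcription start (GRCm38.p6, plus strand) are shown for the cold receptor and for the capsaicin receptor, the 2 members whose ratio is examined below. Capitals mark matches to 2 motifs searched on both strands: TATAAA, the core of the TATA box, and TGTGGT, bound by RUNX factors, which take part in nociceptor specification.
Trpm8, chr1:88306485-88306734: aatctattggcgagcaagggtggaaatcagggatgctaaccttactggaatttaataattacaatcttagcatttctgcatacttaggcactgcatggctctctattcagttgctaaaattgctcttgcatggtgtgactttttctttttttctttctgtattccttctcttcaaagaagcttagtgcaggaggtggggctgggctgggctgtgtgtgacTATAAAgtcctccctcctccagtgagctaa
Trpv1, chr11:73233899-73234148: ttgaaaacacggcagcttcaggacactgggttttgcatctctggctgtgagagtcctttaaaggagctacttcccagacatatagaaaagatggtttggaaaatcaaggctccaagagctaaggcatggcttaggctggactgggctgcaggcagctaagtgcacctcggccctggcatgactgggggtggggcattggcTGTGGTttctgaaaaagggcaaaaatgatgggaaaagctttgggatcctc
The Trpm8 sequence held TATAAA beginning 30 bases before the start, and that of Trpv1 held TGTGGT beginning 50 bases before it. Of 32851 mouse promoters of the same length, 12.4% held the TATA motif and 14.0% the RUNX motif on either strand. Among the other members, the Trpm2 promoter held the TATA motif on the other strand and 1 of 2 Trpm3 promoters held the RUNX motif on the other strand. The 3 Trpv2 promoters held neither, and no Trpa1 promoter was analysed here. A match of this kind is a description of the letters only.

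Per length, Trpv2 was the highest of the 6 channels and Trpm2 the lowest. The median level over the 15 samples, in TPM (counts divided by exonic length and scaled to the same total in each sample), was 33.8 for Trpv2, 24.2 for Trpv1, 22.2 for Trpa1, 14.1 for Trpm8, 3.04 for Trpm3 and 1.35 for Trpm2. Trpv2 exceeded Trpv1 in 14 of 15 samples. Trpv1 exceeded Trpa1 in only 7 of 15, so the order of these 2 nociceptor channels was not fixed. Trpa1 exceeded Trpm8 in 12 samples, 5 of 5 with RvD6 but 3 of 5 with RvD6si. The step from Trpm8 to Trpm3 was present in all 15 samples, and Trpm3 exceeded Trpm2 in 13.

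**Figure D2:**
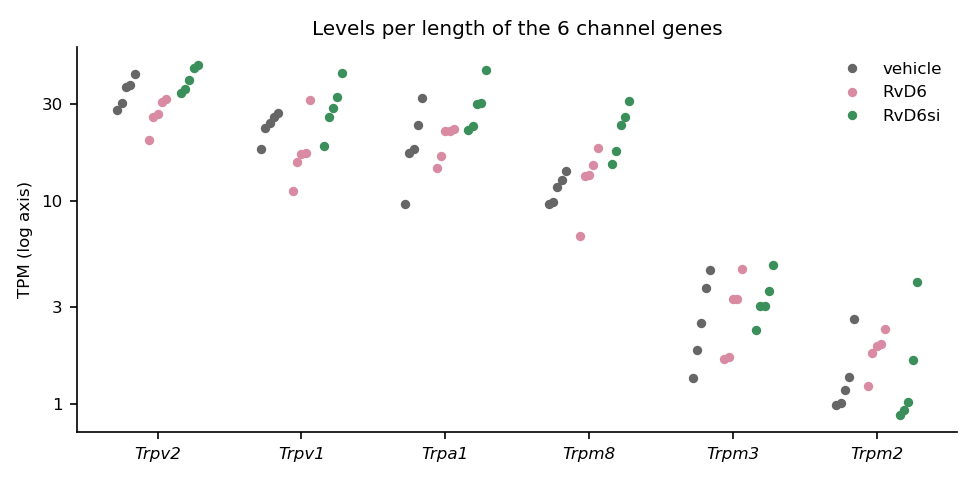
TPM (log axis) of the 6 channel genes in each of the 15 samples, coloured by treatment and ordered by median level. Trpv2, Trpv1, Trpa1 and Trpm8 lie between 6.73 and 46.8 TPM and Trpm3 and Trpm2 between 0.885 and 4.81 TPM.

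Trpm8, the cold receptor, was higher with RvD6si than with vehicle. Its normalized counts (counts divided by the DESeq2 size factor of the sample) in the vehicle samples were 177, 195, 156, 143 and 173, a mean of 169 ± 20.1 (SD, n = 5). With RvD6si they were 213, 335, 304, 198 and 410, a mean of 292 ± 88.0 (SD, n = 5). All 5 RvD6si samples lay above all 5 vehicle samples, by a narrow margin in the lowest (198 against 195). The ratio of the means was 1.73, and the exact two-sided permutation p was 0.00794, the smallest that 5 against 5 samples can give. Of all genes tested, 2.48% were higher without overlap in this comparison and 15.8% had an exact p below 0.05.

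In the edgeR quasi-likelihood fit over all genes and all 15 samples, the log2 fold change of Trpm8 was 0.78 ± 0.25 (SE), with a 95% interval of 0.26 to 1.31. The p-value was 0.00578 before and 0.128 after Benjamini-Hochberg adjustment over all genes, so the gene did not pass the threshold of 0.05. With DESeq2, the tool of the study, the estimate was 0.79 and the adjusted p was 0.0339, past the threshold. EdgeR called 0.670% of 16567 genes and DESeq2 2.83% of 32491. The 32491 include genes without an adjusted p, which DESeq2 could not call, so 2.83% understates the share among callable genes. The highest value, 410, belonged to replicate 15, the library with high neutrophil and erythroid markers and the lowest total. Without it the edgeR estimate was 0.63 (adjusted p = 0.230) and the ratio of means 1.56 with an exact p of 0.00794, again without overlap. The part of those markers in the Trpm8 value of replicate 15 was not tested.

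With RvD6, Trpm8 did not pass the test against vehicle, and its value depended on single libraries. The RvD6 samples had 281, 185, 230, 99.2 and 197 normalized counts, a mean of 198 ± 66.9 (SD, n = 5). They spread on both sides of vehicle, with 3 above its whole range and 1 below. The log2 fold change was 0.22, with an interval of -0.30 to 0.75 (edgeR adjusted p = 0.741), and the upper bound lay just under the 0.78 estimated for RvD6si. Without replicate 9, the sample at 99.2, the estimate was 0.39 (edgeR adjusted p = 0.598) and the exact permutation p went from 0.373 (ratio of means 1.18) to 0.0238 (ratio 1.32). Without replicate 6, the sample at 281, the estimate was 0.06 (edgeR adjusted p = 0.946) and the exact permutation p 0.762. Of 10 comparisons with a sample left out, only 1, that without replicate 9, had an exact p below 0.05. In the direct comparison of the stereoisomers, Trpm8 was 0.56 log2 units higher with RvD6si (interval 0.03 to 1.09, edgeR adjusted p = 0.524). The exact permutation test gave p = 0.0873 for a ratio of means of 1.47, and the groups overlapped. Without replicate 15 this difference was 0.41 log2 units with an edgeR adjusted p of 0.601. A difference between the lipids in Trpm8 was thus not established, although the interval also leaves room for one of over 1 log2 unit.

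**Figure D3:**
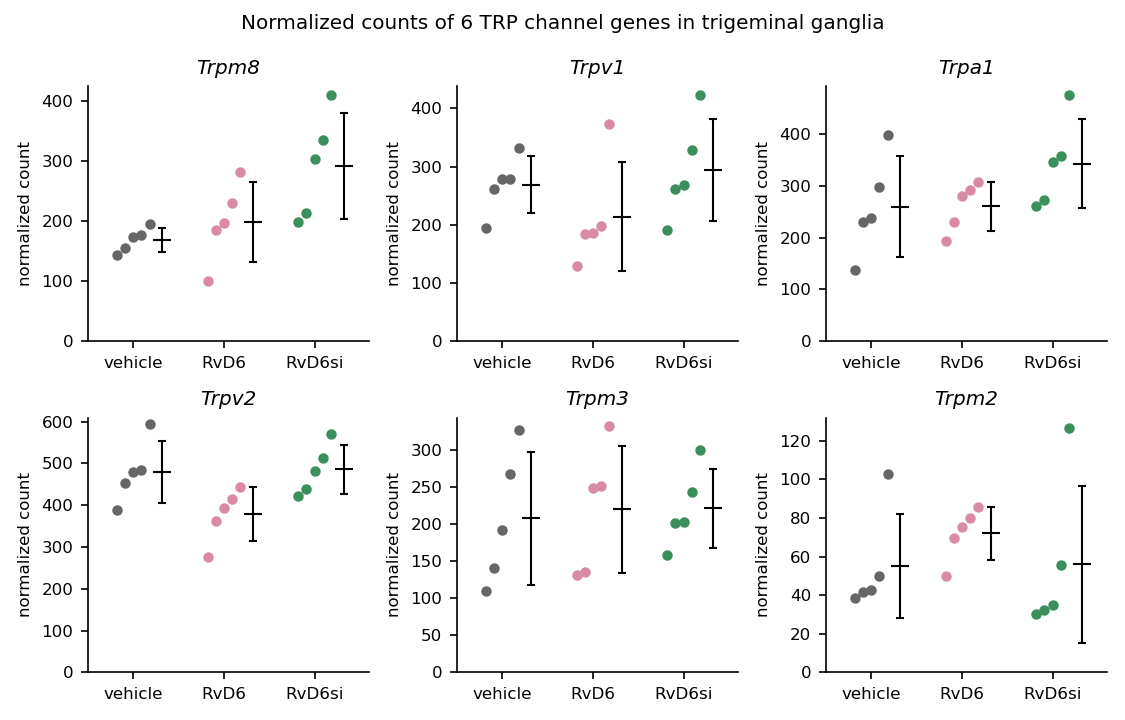
Normalized counts of the 6 channel genes in each sample (points sorted by value within a group; bars, mean and SD, n = 5; all axes start at 0). Only Trpm8 shows 5 RvD6si samples that are all above the 5 vehicle samples, and Trpv2 is lowest with RvD6.

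Trpv1, the capsaicin and heat receptor, showed no comparable shift. The vehicle samples had 195, 278, 332, 261 and 279 normalized counts, a mean of 269 ± 49.4 (SD, n = 5). The RvD6si samples had 269, 261, 424, 328 and 190, a mean of 294 ± 87.2, and enclosed the vehicle range at both ends. RvD6si differed from vehicle by 0.13 log2 units with an interval of -0.42 to 0.68 (edgeR adjusted p = 0.857). The RvD6 samples had 186, 184, 374, 197 and 129, a mean of 214 ± 93.3, with 3 below all vehicle samples and 1, replicate 8, above them. RvD6 differed from vehicle by -0.35 log2 units with an interval of -0.90 to 0.20 (edgeR adjusted p = 0.597). Without replicate 8 it was -0.65 (adjusted p = 0.204), and the ratio of means moved from 0.796 (exact p = 0.310) to 0.647 (exact p = 0.0238). Replicate 8 was singled out from these same values, and only this 1 of 10 comparisons with a sample left out had an exact p below 0.05. RvD6si exceeded RvD6 by 0.48 log2 units (interval -0.08 to 1.03, edgeR adjusted p = 0.631), and by 0.78 (adjusted p = 0.293) without replicate 8.

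The ratio of Trpm8 to Trpv1 counts compares both receptors within a library and does not depend on scaling. It was 0.911, 0.700, 0.469, 0.547 and 0.619 in the vehicle samples, so that Trpv1 had more counts in each. With RvD6 it was 1.51, 1.00, 0.614, 0.503 and 1.53, and with RvD6si 0.794, 1.28, 0.718, 0.603 and 2.15. The mean log2 ratio was -0.66 ± 0.36 in vehicle, -0.10 ± 0.74 with RvD6 and -0.01 ± 0.75 with RvD6si (SD, n = 5). The spread within both lipid groups was as large as the shift, and the exact permutation p was 0.127 for RvD6si against vehicle, 0.167 for RvD6 against vehicle and 0.865 between the lipids. The highest ratio, 2.15, again came from replicate 15, without which the difference of RvD6si from vehicle went from 0.65 to 0.37 log2 units.

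Trpa1, the irritant receptor, had overlapping groups. Its normalized counts were 298, 399, 136, 238 and 229 in vehicle, a mean of 260 ± 96.9 (SD, n = 5). With RvD6 they were 308, 281, 230, 291 and 193 (261 ± 47.7), and with RvD6si 477, 260, 347, 273 and 358 (343 ± 86.3). Only 1 RvD6si sample, replicate 11, exceeded the highest vehicle sample. The log2 fold change was 0.39 for RvD6si (interval -0.12 to 0.91, edgeR adjusted p = 0.459) and -0.01 for RvD6 (interval -0.53 to 0.50, adjusted p = 0.989). RvD6si lay 0.40 log2 units above RvD6 (interval -0.11 to 0.92, edgeR adjusted p = 0.680), with 3 of its samples above all RvD6 samples and an exact permutation p of 0.0952.

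Trpv2, the channel of medium and large sensory neurons, was lower with RvD6 than with either other group before adjustment. The vehicle samples had 480, 485, 453, 390 and 594 normalized counts, a mean of 480 ± 74.0 (SD, n = 5). The RvD6 samples had 393, 415, 444, 276 and 362, a mean of 378 ± 64.4. The 2 groups overlapped, but 2 RvD6 samples lay below the whole vehicle range. The log2 fold change was -0.36 ± 0.16 (SE), with an interval of -0.69 to -0.03. Its p was 0.0360 before and 0.332 after adjustment (edgeR), and the exact permutation p was 0.0397, a level reached by 14.3% of all genes in this comparison. The exact p stayed below 0.05 in 2 of the 10 comparisons that left out a sample, and was highest, 0.0873, without vehicle replicate 5.

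With RvD6si, Trpv2 had 514, 439, 570, 482 and 423 normalized counts, a mean of 485.5 ± 59.1 (SD, n = 5), inside the vehicle range. The log2 fold change from vehicle was 0.01 (interval -0.32 to 0.34, edgeR adjusted p = 0.982). Between the stereoisomers Trpv2 was 0.37 ± 0.16 log2 units (SE) higher with RvD6si, with an interval of 0.04 to 0.70 and an edgeR p of 0.0312 before and 0.496 after adjustment. The exact permutation p was 0.0238, and 8.49% of all genes had an exact p below 0.05 between the lipids. Of the 5 RvD6si samples, 3 lay above all RvD6 samples. Leaving out RvD6 replicate 9, the lowest, raised the exact p to 0.0556, and it stayed below 0.05 in the other 9 comparisons with a sample left out.

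The lower Trpv2 of the RvD6 libraries stood beside their lower level of neuron markers, whose summed CPM was 6974 ± 1277 in RvD6 against 8978 ± 349 in vehicle (SD, n = 5), a ratio of 0.777. Single markers were mixed, with 7 negative and 3 positive edgeR estimates among the 10. Satellite glia markers were also lower (6819 to 8315 CPM against 8656 to 9991), so the lower level was not particular to neuron markers. RvD6 replicate 9, with the lowest Trpv2 (276) and the lowest Trpm8 (99.2), was also among the 2 libraries with the least neuron marker counts. When the summed counts of the pan-neuron markers were used as library size, all genes shifted together, with the median gene at 0.44 log2 units above vehicle with RvD6, at 0.17 above vehicle with RvD6si and at -0.26 between the lipids. Trpv2 and Trpv1 then lay at 0.03 and 0.02 for RvD6 against vehicle, a change of sign that this shift sets. Relative to the median gene, the difference of Trpv2 between RvD6 and vehicle was -0.38 log2 units with the usual scaling and -0.41 with that to neuron markers, and for Trpv1 it was -0.37 and -0.42. Trpm8 with RvD6si lay 0.77 and 0.78 log2 units above the median gene in the comparison with vehicle. Between the lipids Trpm8 lay 0.56 and 0.64 above the median gene, and Trpv2 0.37 and 0.39. The part of the lower neuron marker level in these values was not tested.

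Trpm3, a heat-activated channel also gated by neurosteroids, varied widely within every group. It had 268, 327, 109, 192 and 141 normalized counts in vehicle, a mean of 208 ± 89.9 (SD, n = 5). RvD6 samples had 135, 333, 132, 249 and 252 (220 ± 85.9) and RvD6si samples 300, 243, 202, 203 and 158 (221 ± 53.6). The 3 means lay within a small part of the SD of any group. The log2 fold changes were 0.09 for RvD6si (interval -0.55 to 0.73) and 0.07 for RvD6 (interval -0.57 to 0.71), with edgeR adjusted p of 0.926 and 0.951. In vehicle, replicate 2 was the highest and replicate 3 the lowest sample for both Trpm3 and Trpa1.

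Trpm2, the channel gated by ADP-ribose, was the least expressed, with raw counts of 20 to 125. Its normalized counts were 49.7, 42.7, 41.7, 38.4 and 103 in vehicle (55.1 ± 27.0, SD, n = 5), with replicate 5 far above the rest. They were 50.0, 85.6, 79.9, 69.4 and 75.5 with RvD6 (72.1 ± 13.7) and 126, 30.4, 55.7, 35.2 and 32.5 with RvD6si (56.0 ± 40.7), where replicate 11 stood alone at the top. The log2 fold change of RvD6 against vehicle was 0.37 (interval -0.47 to 1.21, edgeR adjusted p = 0.728), and 0.72 (adjusted p = 0.551) without vehicle replicate 5. Leaving out that sample took the exact permutation p from 0.206 (ratio of means 1.31) to 0.0159 (ratio 1.67). The sample was singled out from these same values, and only this 1 of 10 comparisons with a sample left out fell below 0.05. That of RvD6si was 0.02 (interval -0.83 to 0.86, adjusted p = 0.991), which became -0.51 without replicate 11 and 0.38 without vehicle replicate 5. RvD6si lay 0.35 log2 units below RvD6 (log2 fold change -0.35, interval -1.20 to 0.49, edgeR adjusted p = 0.853). Without RvD6si replicate 11, also singled out from these values, the estimate was -0.88 (adjusted p = 0.558). The exact permutation p then went from 0.460 to 0.0238, the only 1 of 10 comparisons with a sample left out that fell below 0.05. Phagocytes also express Trpm2, and neutrophil markers were high in all 5 RvD6 libraries (679 to 2236 CPM), whose Trpm2 values of 50.0 to 85.6 lay above 4 of the 5 vehicle samples. They stood at 211 CPM in vehicle replicate 5, at 127 CPM in RvD6si replicate 11 and at 2054 CPM in replicate 15, which had a Trpm2 value of 32.5. Summed macrophage markers (9 genes) were 91 to 132 CPM in vehicle, 92 to 166 with RvD6 and 82 to 153 with RvD6si. The part of these cells in the Trpm2 values was not tested.

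As a group, no member passed the adjusted threshold of edgeR in any of the 3 comparisons. For RvD6si against vehicle all 6 estimates were positive, with a median of 0.11 log2 units beside 0.02 for all genes tested, and 1 of 6 had an unadjusted p below 0.05, against 8.69% of all genes that were higher at that level. For RvD6 against vehicle 3 were positive and 3 negative (median 0.03), and 1 of 6 was lower with an unadjusted p below 0.05 (5.99% of all genes). No gene at all was called by edgeR (0.00%), although 2256 genes were below 0.05 before adjustment. DESeq2 called 369 (1.14% of 32491, which include genes it could not call). Between the lipids 5 of 6 were higher with RvD6si (median 0.39), with 2 of 6 below 0.05 unadjusted against 4.18% of all genes that were higher. EdgeR called 0.235% of its 16567 genes and DESeq2 0.569% of the 32491. The comparisons share their samples, so these counts are not separate observations. The summed CPM of the 6 channels was 162 to 240 in vehicle, 162 to 205 with RvD6 and 214 to 271 with RvD6si. All RvD6si sums were thus above all RvD6 sums, while the vehicle range overlapped both. The sum of 20 genes for modulators of these channels, described below, was arranged in the same way between the lipids. It was 1530 to 2087 CPM with RvD6 and 2126 to 2325 with RvD6si. The sums of the 10 pan-neuron markers overlapped, with 4 RvD6si libraries above all RvD6 libraries. All 10 of these markers had positive estimates between the lipids (median 0.31 log2 units, ratio of the mean sums 1.22). Erythroid, neutrophil and muscle markers were high in the RvD6 libraries, as given above, and the part of these levels in the sums was not tested.

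**Figure D4:**
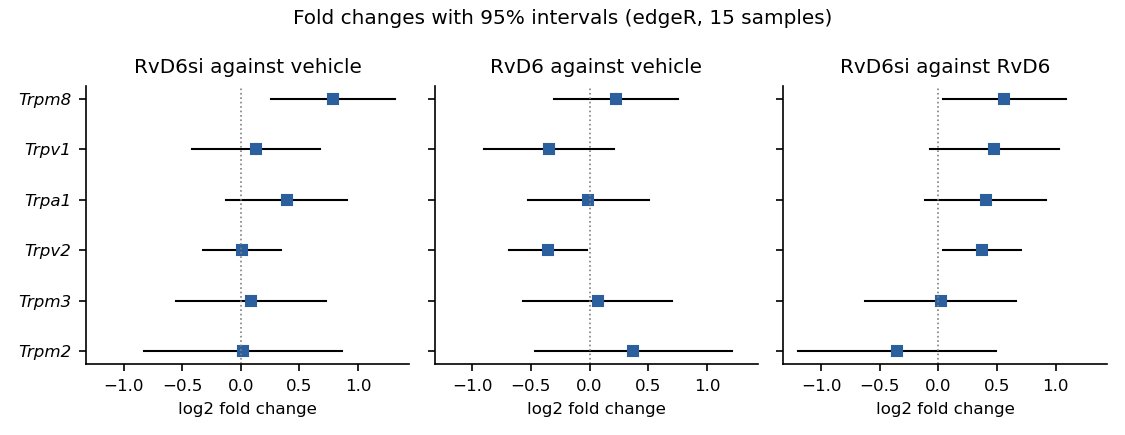
Log2 fold changes (squares) of the 6 channel genes with 95% intervals (lines) from the edgeR fit over 15 samples, in the 3 comparisons. The intervals that leave out 0 are those of Trpm8 for RvD6si against vehicle (0.26 to 1.31), Trpv2 for RvD6 against vehicle (-0.69 to -0.03), and Trpm8 and Trpv2 for RvD6si against RvD6, and none of the 4 passed the adjusted threshold.

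The rest of the TRP family comprised 22 genes, of which 12 passed the filter, and none was called by edgeR in any comparison. Trpc2 and Trpv5 had no count in any sample. For RvD6si against vehicle 7 of 12 estimates were positive, with a median of 0.11 log2 units, and none had an unadjusted p below 0.05. The highest were Trpc4 at 0.79 ± 0.79 and Trpc1 at 0.50 ± 0.34, both canonical channels of receptor-operated calcium entry, and the lowest were Trpv3 at -1.26 ± 1.14 and Trpm6 at -0.49 ± 1.22 (SE), both with few counts. For RvD6 against vehicle 8 of 12 were positive, with a median of 0.29. Here the highest were Trpc6 (0.69 ± 0.46) and Pkd2l2 (0.61 ± 0.67), and the lowest were the osmotically sensitive Trpv4 (-0.91 ± 0.66) and the lysosomal channel Mcoln1 (-0.44 ± 0.18, edgeR adjusted p = 0.297).

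Trpm7, a channel fused to a kinase and involved in magnesium balance, was singled out after its values were seen. It had 348 ± 41.5 normalized counts in vehicle, 525 ± 128 with RvD6 and 359 ± 74.3 with RvD6si (SD, n = 5). Its log2 fold change was 0.58 for RvD6 against vehicle (edgeR adjusted p = 0.192) and 0.04 for RvD6si (adjusted p = 0.940). The difference between the lipids, -0.53, had an edgeR adjusted p of 0.352. DESeq2 called 1 gene of the family, Mcoln2, for RvD6 against vehicle (adjusted p = 0.0441), at 8.51 ± 4.29 normalized counts against 0.394 ± 0.880 (SD, n = 5), too few for the edgeR filter.

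**Figure D5:**
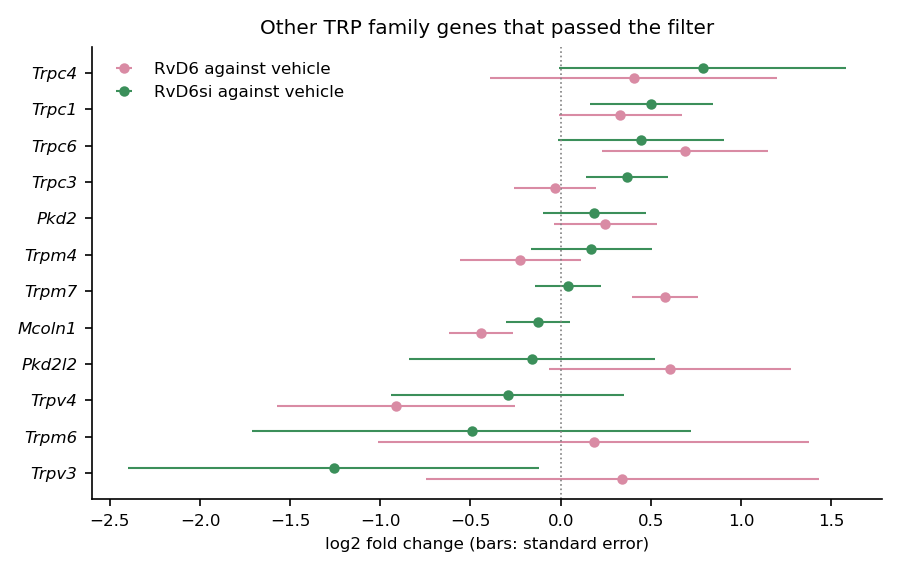
Log2 fold changes against vehicle of the 12 other TRP family genes that passed the filter, with RvD6 and RvD6si shown separately (points; bars, standard error). None was called by edgeR, and Trpm7 with RvD6 (0.58) is the point farthest from 0 in units of its standard error.

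Genes whose products tune these channels were listed as well, 20 in all, and all were tested. None was called by edgeR. For RvD6si against vehicle 15 of 20 estimates were positive, with a median of 0.22 log2 units beside 0.02 for all genes. Unadjusted p was below 0.05 for 4 that were higher (8.69% of all genes) and for 1 that was lower (7.30%). The largest estimate was that of the bradykinin receptor Bdkrb2 (1.24 ± 0.70, SE, edgeR adjusted p = 0.402). It rested on few counts, 14.5 ± 13.4 normalized in vehicle and 34.5 ± 12.9 with RvD6si (SD, n = 5). Next was Prkaca, a catalytic subunit of protein kinase A, at 0.72 ± 0.21 (edgeR adjusted p = 0.0953). Prkaca had 168 ± 42.0 normalized counts in vehicle and 280 ± 34.4 with RvD6si (SD, n = 5) and was past the threshold with DESeq2 (adjusted p = 0.0142). The lowest were Tmem100, an adaptor between TRPA1 and TRPV1, at -0.42 ± 0.25 and the kinase Cdk5 at -0.36 ± 0.15.

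For RvD6 against vehicle 10 of the 20 modulators were positive and 10 negative, with a median of 0.00 log2 units, and 2 that were lower had an unadjusted p below 0.05, a level at which 5.99% of all genes were lower. Bdkrb2 (1.10 ± 0.70) and the protease receptor F2rl1 (0.73 ± 1.18) were highest. Tcaf2, a partner of TRPM8, was lowest at -1.06 ± 1.10 (SE). Bdkrb2, F2rl1 and Tcaf2 all had few counts, with vehicle means of 14.5, 7.39 and 16.4 normalized counts.

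Neither of 2 other genes of cold-sensing neurons passed the test. Foxp2, a transcription factor, was 0.77 ± 0.48 log2 units (SE) above vehicle with RvD6si (edgeR adjusted p = 0.454) and 0.92 ± 0.48 with RvD6 (adjusted p = 0.419). Cdh8, a cadherin, was at -0.34 ± 0.36 with RvD6si (adjusted p = 0.701) and at -0.31 ± 0.36 with RvD6 (adjusted p = 0.758). Neither gene is confined to cold-sensing neurons. The peptidergic nociceptor list had 4 of 6 negative estimates with RvD6si and 5 of 6 with RvD6, none called by edgeR. The substance P precursor Tac1 was at -0.49 (adjusted p = 0.0813) and -0.41 (adjusted p = 0.200), and Calcb, a calcitonin gene-related peptide, at -0.34 (adjusted p = 0.231) and -0.52 (adjusted p = 0.143). Calca was at -0.21 and -0.27, Gfra3 at -0.09 and -0.21, and Adcyap1 at 0.40 and 0.23 for RvD6si and RvD6 (all from edgeR). Of the 10 pan-neuron markers, 5 had positive and 5 negative estimates for RvD6si against vehicle, and edgeR called 1, against 0.670% of all genes. This was the RNA-binding protein gene Elavl4, which rose (log2 fold change 1.13, edgeR adjusted p = 0.0346). Stmn2, which encodes a regulator of microtubules, stood at -0.38 (edgeR adjusted p = 0.120) and was called lower by DESeq2 (adjusted p = 0.0345).

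The genes whose log2 CPM followed each channel most closely over the 15 samples were taken by Pearson correlation, as a description in samples that share library, depth and treatment. Trpm8 was closest to Acbd3 (r = 0.856) and Basp1 (0.805), of which Basp1 encodes a growth cone protein. Trpv1 was closest to Morf4l2 (0.871), Tcf25 (0.861) and Atp6v1c1 (0.859), and Trpa1 to Sh3bgrl2 (0.888), Dctn1 (0.822) and Prkab2 (0.818). Trpv2 was closest to Jup (0.895), to the neurofilament light chain gene Nefl (0.895) and to Immt (0.880). Trpm3 was closest to Camk1d (0.881), Ppfibp1 (0.852) and Rab6b (0.838), and Trpm2 to Pik3r4 (0.781), Gm10557 (0.772) and Phc1 (0.754). With the group means removed, r was 0.701 to 0.898 for the pairs named here. The channels themselves were left out of the candidates, so this ranking does not show how closely they follow each other.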

How the data were processed

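Whole TG RNA was converted to cDNA from the poly(A) tail, amplified and sequenced by an adapted Smart-seq2 protocol that does not keep strand. The authors aligned reads with Rsubread to GRCm38 and counted them on GENCODE M22 exons; the deposited values are these raw counts per gene (featureCounts 1.5.0-p1 in the table header). Symbols matched 99.7% of identifiers. The members and gene lists were chosen with earlier results of these data known. Genes were tested mainly with edgeR 4.0.16 by quasi-likelihood (R 4.3.3; all 15 samples, 3 groups, TMM, filterByExpr with a minimum count of 10 and total of 15), adjusted by Benjamini-Hochberg over 16567 genes at a threshold of 0.05. DESeq2 1.42.0 was an alternative. Normalized counts were compared by two-sided exact permutation tests of the difference of means (252 splits, SciPy 1.17.1), 18 comparisons in all, of which 3 had p below 0.05, unadjusted. TPM used the deposited exonic lengths. Log2 CPM used a prior count of 2. Named genes were the members, the called and the 2 highest and 2 lowest genes of the family and modulator lists for each lipid, and the cold-sensing and peptidergic lists. Also named were the 3 genes closest to each member, among non-members with a mean log2 CPM of at least 3. Some genes that this rule names are not reported here. The steps were tested on simulated data.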

Additional observations from a re-analysis of the deposited data

Results flagged for a closer look

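Of 21 groups of 5 values tested for a sample far from the others (6 channels and the Trpm8 to Trpv1 ratio in 3 treatments), 3 held one, and chance alone gives about 1 in 20. Trpv1 in RvD6 replicate 8 had 374 normalized counts while the other RvD6 samples had 129 to 197. Trpm2 in vehicle replicate 5 had 103 against 38.4 to 49.7 in the other vehicle samples. Trpm2 in RvD6si replicate 11 had 126 against 30.4 to 55.7 in the other RvD6si samples. The stereoisomers differed in Trpv2 in a test of the difference itself, with 107 more normalized counts with RvD6si than with RvD6 (exact permutation p = 0.0238, unadjusted; higher than all RvD6 samples in 3 of 5).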

How the results depend on the processing

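No paired analysis was possible because the groups share no replicate numbers. Trpm8 stayed higher with RvD6si than with vehicle under every alternative run. DESeq2 with all samples called 920, 369 and 185 genes (RvD6si against vehicle, RvD6 against vehicle, RvD6si against RvD6) and with the 2 groups compared 979, 664 and 182, where edgeR called 111, 0 and 39; in both, 1 channel (Trpm8, adjusted p = 0.0339 and 0.0110) and 1 modulator were called for RvD6si and 1 other TRP gene for RvD6. EdgeR with the 2 groups compared called 38 and 17 genes in the comparisons with RvD6, no filter 56 and 59, and at least 10 counts in every sample 315, 24 and 23. Removing each sample's trend on gene length left 63 calls for RvD6si and turned Trpv2 (-0.10) and Trpm2 (-0.17) for RvD6si and Trpm3 (-0.13) for RvD6. Counts thinned to the lowest library total, an alternative chosen after seeing the data, gave 3 calls for RvD6 and Trpv2 at -0.058 for RvD6si.

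Scaling to pan-neuron markers shifted the median gene by 0.44 log2 units for RvD6 against vehicle, where 4432 of 16567 genes then had an unadjusted edgeR p below 0.05, nearly all higher (4404), by 0.17 for RvD6si and by -0.26 between the lipids. It gave 29 calls for RvD6si and 520 for RvD6, 1 of them in the TRP family (Trpm7). The values of Trpv1 (0.017; count ratio 1.01), Trpv2 (0.029; 1.02) and Trpa1 (0.37) for RvD6 changed sign with this shift, as did Trpm3 between the lipids (-0.29; 0.816), and relative to the median gene those of RvD6 stayed below it. The number of channels with an exact p below 0.05 became 2 for RvD6 and 0 between the lipids, on a scale that moves all genes alike. Trpa1 for RvD6 lay at 0.0037 with DESeq2, at 0.00326 with RLE normalization, at 0.024 with 10 counts in every sample and at a ratio of 0.991 with TMM factors. Trpm3 between the lipids was -0.0075 with 10 counts in every sample, and Trpm2 for RvD6si had a ratio of 0.933 on the log2 scale.

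With each sample left out in turn, calls ranged from 0 (without RvD6si replicate 11) to 229 (without RvD6 replicate 9) for RvD6si, from 0 to 51 (without RvD6si replicate 15) for RvD6 and from 2 to 156 (without replicate 15) between the lipids. Trpm8 for RvD6si ranged from 0.63 to 0.90 (edgeR adjusted p 0.0735 to 0.246) and for RvD6 from 0.06 (without replicate 6) to 0.39 (without replicate 9). Ranges that crossed 0 for RvD6si were -0.049 to 0.25 for Trpv1 (count ratio 0.974 to 1.19), -0.060 to 0.11 for Trpv2 (0.966 to 1.08), -0.069 to 0.31 for Trpm3 (0.952 to 1.24) and -0.51 to 0.38 for Trpm2 (0.698 to 1.30). For RvD6 they were -0.18 to 0.19 for Trpa1 (0.895 to 1.16) and -0.13 to 0.29 for Trpm3 (0.924 to 1.24), and between the lipids -0.11 to 0.21 for Trpm3 (0.913 to 1.15). The log2 Trpm8 to Trpv1 ratio differed by 0.37 to 0.82 for RvD6si (exact p below 0.05 in 1 of 10) and by -0.20 to 0.26 between the lipids. The number of channels with an exact p below 0.05 ranged from 0 to 2 for RvD6 and from 0 to 2 between the lipids, and was 1 in all 10 for RvD6si. The cause of these changes was not tested.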
